A study of Mus musculus with 2 samples.

Results

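The T cell receptor complex and its first signalling proteins were read in cells sorted as Langerhans cells, which present antigen in the epidermis and carry the lectin Langerin. The genes were Cd3d, Cd3e, Cd3g, Cd247, Thy1, Lck, Lat, Zap70 and Il2rb, 9 in all, taken as T cell genes. They were chosen with their values on these arrays known. A gene was measured where the array's annotation gave a probe set that gene's symbol alone. This held for 8 of the 9, each with 1 probe set, among 19937 genes in the table; Lck was not analysed here.

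Cells from Il34LacZ/LacZ mice, whose Il34 copies are both LacZ alleles, were set against cells from Il34+/LacZ mice, which keep 1 working copy. All animals were 8 to 12 weeks old and were exposed to ultraviolet light for 30 min. Cells carrying both Langerin and Epcam were collected 21 days later, and 2 ng of total RNA was amplified and hybridised for each genotype. Keratinocytes make IL-34, which signals through the CSF1 receptor and on which Langerhans cells depend. Both genotypes carry LacZ, so the heterozygote is not a wild type, and the labels do not say whether an array holds 1 animal or a pool.

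Each genotype was measured once (n = 1), so no value has a replicate error and no test between genotypes is possible. Genotype, animal, sort and amplification cannot be told apart. The available measure of error is the disagreement between different probe sets of 1 gene, an SD of 0.63 on the log2 scale (1.55-fold, 614 genes). The median intensity over all probe sets was 51.9 on the Il34LacZ/LacZ array and 45.2 on the Il34+/LacZ array, and the upper quartile was 116.4 on the Il34LacZ/LacZ array and 142.7 on the Il34+/LacZ array. A floor was set at 48.7, the median intensity of the pooled probe sets of the arrays, and was passed by 12843 genes and by all 8 measured T cell receptor genes on both arrays. The sort's own markers were bright. Cd207, which encodes Langerin, read 1852.0 in Il34LacZ/LacZ and 3153.0 in Il34+/LacZ cells, and Epcam read 707.7 in Il34LacZ/LacZ and 632.9 in Il34+/LacZ cells.

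In a T cell, the receptor chains that bind antigen have almost no signalling tail of their own. CD3 delta, epsilon and gamma and the zeta chain encoded by Cd247 carry tyrosine motifs that the kinase LCK phosphorylates. ZAP-70 docks on these motifs and phosphorylates the adaptor LAT, which assembles the downstream signalling proteins. Mouse epidermis normally holds T cells with a gamma delta receptor beside its Langerhans cells, and these T cells express Thy1. Langerhans cells themselves present antigen and are not known to carry a T cell receptor.

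Cd3g, Cd3d and Cd3e are neighbours on chromosome 9, and their promoters are shown because the 3 genes are read together below. Each sequence is the 250 bases before a start site on the gene's strand, from RefSeq (GRCm38.p6), with the ETS core GGAA, or TTCC on the other strand, in capitals. For Cd3d and Cd3e the start site used lies inside the annotated span of the gene, so the last bases of these windows overlap it.
Cd3d, chr9:44981536-44981785, plus strand: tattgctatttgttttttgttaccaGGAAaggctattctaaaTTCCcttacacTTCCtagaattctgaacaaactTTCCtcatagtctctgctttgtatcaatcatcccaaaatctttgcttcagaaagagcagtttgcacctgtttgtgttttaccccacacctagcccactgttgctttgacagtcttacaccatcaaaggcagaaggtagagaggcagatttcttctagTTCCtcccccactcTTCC
Cd3e, chr9:45009612-45009861, minus strand: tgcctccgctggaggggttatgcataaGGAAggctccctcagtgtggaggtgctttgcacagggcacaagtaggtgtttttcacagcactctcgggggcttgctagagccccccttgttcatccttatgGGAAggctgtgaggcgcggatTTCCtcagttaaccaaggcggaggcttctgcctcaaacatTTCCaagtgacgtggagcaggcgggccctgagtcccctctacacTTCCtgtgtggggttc
Cd3g, chr9:44980432-44980681, minus strand: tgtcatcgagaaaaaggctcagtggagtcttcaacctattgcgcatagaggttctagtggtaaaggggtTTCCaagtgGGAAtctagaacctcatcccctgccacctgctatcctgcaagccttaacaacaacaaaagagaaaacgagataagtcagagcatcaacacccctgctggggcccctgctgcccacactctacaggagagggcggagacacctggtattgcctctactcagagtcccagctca

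Searched on both strands, the ETS core occurred 6 times before Cd3d, 5 times before Cd3e and 2 times before Cd3g. ETS factors include Ets1, a transcription factor of lymphocytes, but the core is in 93.4% of the 32817 promoters of the same length. The E box CANNTG occurred 1 time before Cd3d, 1 time before Cd3e and 3 times before Cd3g, and is in 66.2% of all promoters. In the Cd3e and Cd3g promoters 1 E box shares 1 base with an ETS core. GATA matched 1 time before Cd3d and 2 times before Cd3g (53.6% of all promoters), the TCF/LEF site CTTTGA 2 times before Cd3d (13.8%) and the GC box GGGCGG 1 time before Cd3g (32.7%). Neither the RUNX site TGTGGT (14%) nor the TATA box TATAAA (12.4%) was found in these 3 windows.

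The CD3 chains of this cluster were among the brighter genes of both arrays. Cd3e read 1250.3 in Il34LacZ/LacZ and 1245.4 in Il34+/LacZ cells, at the 98.8 percentile of all genes on the first array and the 98.1 on the second. Cd3g, the gamma chain, read 1635.3 in Il34LacZ/LacZ and 1496.3 in Il34+/LacZ cells (99.2 and 98.5 percentile). As deposited, both were nearly level between the genotypes. Cd3d, the delta chain, read 537.3 in Il34LacZ/LacZ and 743.9 in Il34+/LacZ cells (96.6 and 96.1 percentile), lower in Il34LacZ/LacZ as deposited. Cd247, the zeta chain encoded on chromosome 1, read 162.2 in Il34LacZ/LacZ and 245.4 in Il34+/LacZ cells (82.3 and 83.7 percentile). A percentile places a reading within 1 array; probe sets differ in brightness, so these values do not order the chains by amount of transcript.

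The surface marker, the kinase, the adaptor and the cytokine receptor chain were also read above the floor on both arrays. Thy1, a glycolipid-anchored surface protein of T cells that fibroblasts also carry, read 2081.7 in Il34LacZ/LacZ and 2664.1 in Il34+/LacZ cells (99.4 and 99.3 percentile). Zap70, the receptor-proximal kinase of T and NK cells, read 198.9 in Il34LacZ/LacZ and 169.4 in Il34+/LacZ cells (86.5 and 76.3 percentile). It was the one member of the 8 whose percentile moved by more than 2 points. Genes near the top of an array have little room to move in percentile, so this does not set Zap70 apart from the brighter members. Lat, the adaptor, which mast cells and platelets also express, read 443.6 in Il34LacZ/LacZ and 648.8 in Il34+/LacZ cells (95.5 and 95.2 percentile). Il2rb, the beta chain shared by the IL-2 and IL-15 receptors of T and NK cells, read 552.5 in Il34LacZ/LacZ and 876.2 in Il34+/LacZ cells (96.7 and 96.9 percentile). All 8 lay above the 75th percentile on both arrays, and 6 of 8 lay above the 90th on each; Cd247 and Zap70 were the other two.

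**Figure D1:**
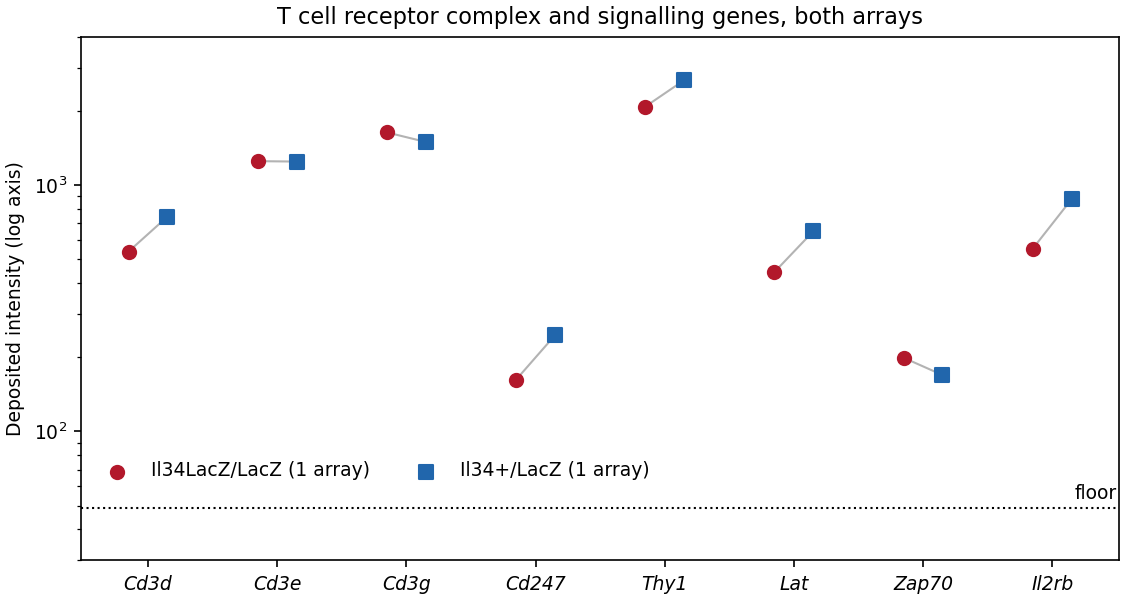
Deposited intensity (log axis) of the 8 measured genes on the Il34LacZ/LacZ array (red circles) and the Il34+/LacZ array (blue squares), 1 array each, with the floor of 48.7 as a dotted line. All readings lie above the floor; as deposited, Cd3e, Cd3g and Zap70 are level or higher in Il34LacZ/LacZ and the other 5 genes are lower there.

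Differences were taken as Il34LacZ/LacZ minus Il34+/LacZ on the log2(intensity + 16) scale, which understates the change of dim genes. All folds between the genotypes, here and below, are on this scale and are smaller than the ratio of the printed readings. Il2rb differed by -0.65 (1.57-fold lower in Il34LacZ/LacZ), Cd247 by -0.55, Lat by -0.53, Cd3d by -0.46 and Thy1 by -0.35. Cd3e differed by 0.01, Cd3g by 0.13 and Zap70 by 0.21. Of the 8, 7 differed by less than the probe set SD of 0.63, and Il2rb passed it by little. The spread of the 8 differences was itself small, an SD of 0.34 and a range of 0.86. Within the CD3 cluster the 3 chains spanned 0.58, so their differences from each other also lie within the probe set SD.

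At a threshold of 1.5-fold, 1 of the 8 (Il2rb) was lower in Il34LacZ/LacZ, and 0 were higher. Over the 12843 genes that passed the floor, 28.1% were lower and 9.34% higher by the same rule, and the median difference was -0.16. The median of the 8 was -0.41. In bulk RNA, fewer cells of a type and less RNA per cell cannot be told apart.

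Genes as bright as these mostly read lower in Il34LacZ/LacZ. Among the 3489 genes whose mean level lay between that of the dimmest and the brightest of the 8, the median difference was -0.60, 83.5% were below 0 and 51.2% were at least 1.5-fold lower. Each of the 8 was therefore set against the 500 genes nearest to it in mean level. The differences of Cd3g, Cd3e and Zap70 lay at the 92.6, 87.0 and 86.6 percentile of those genes, whose medians were -0.54, -0.60 and -0.51. Cd3d lay at the 64.6, Thy1 at the 64.4 and Lat at the 58.2 percentile. Il2rb at 50 and Cd247 at 49.2 sat in the middle of genes of their level.

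**Figure D2:**
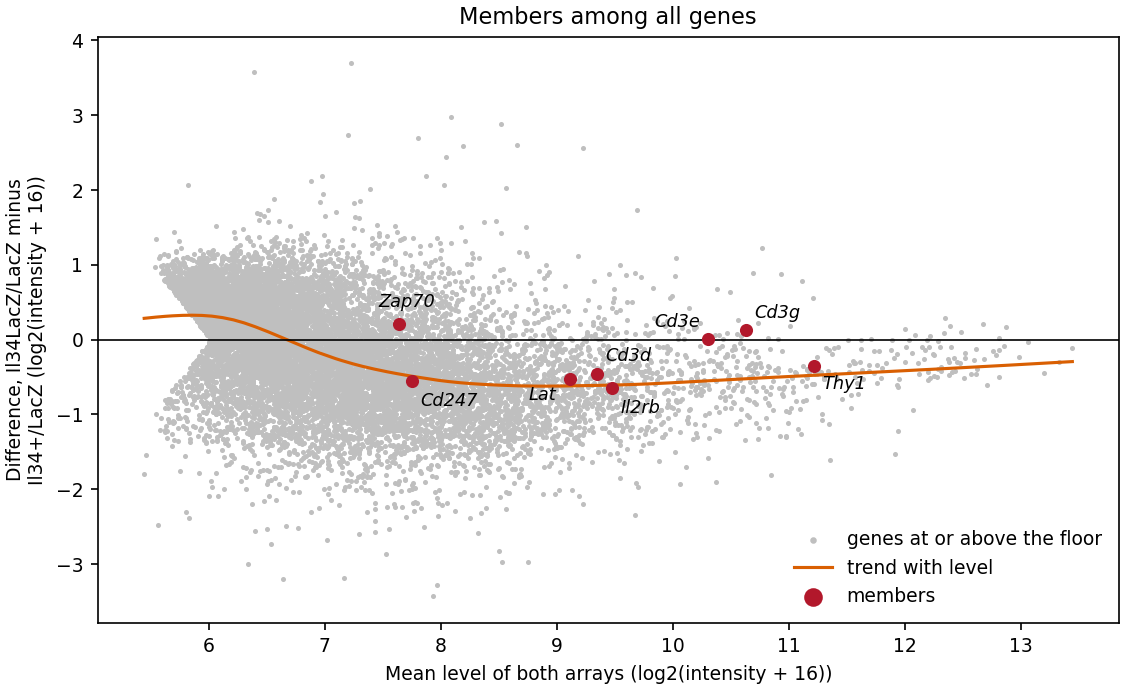
Difference between the arrays (Il34LacZ/LacZ minus Il34+/LacZ, log2(intensity + 16)) against the mean level of both, for all genes at or above the floor (grey), with the trend of the difference with level (orange) and the 8 genes (red). Zap70, Cd3e and Cd3g lie above the trend and the other 5 lie close to it.

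With a loess trend of the difference on level removed, the differences became 0.67 for Zap70, 0.65 for Cd3g and 0.56 for Cd3e, and 0.15 for Cd3d, 0.12 for Thy1 and 0.09 for Lat. Il2rb and Cd247 stayed marginally negative, at -0.04 and -0.06. By this measure 2 of the 8 (Zap70 and Cd3g) were at least 1.5-fold higher, against 13.9% of all genes, and none was lower, against 18.4%. Cd3d, Thy1 and Lat thus changed sign with the trend. Cd3e and Cd3g changed sign the other way when each array was centred on its median, at -0.14 and -0.02. The directions of these 5 genes therefore depend on the scaling, and only Cd247, Il2rb and Zap70 kept 1 direction in all 10 alternatives. Changes of floor, pseudocount or probe set rule cannot turn a member's sign, so only the scalings and trend removals bear on direction. Under those, Il2rb shrank to as little as -0.03, Cd247 to -0.06 and Zap70 to 0.06.

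**Figure D3:**
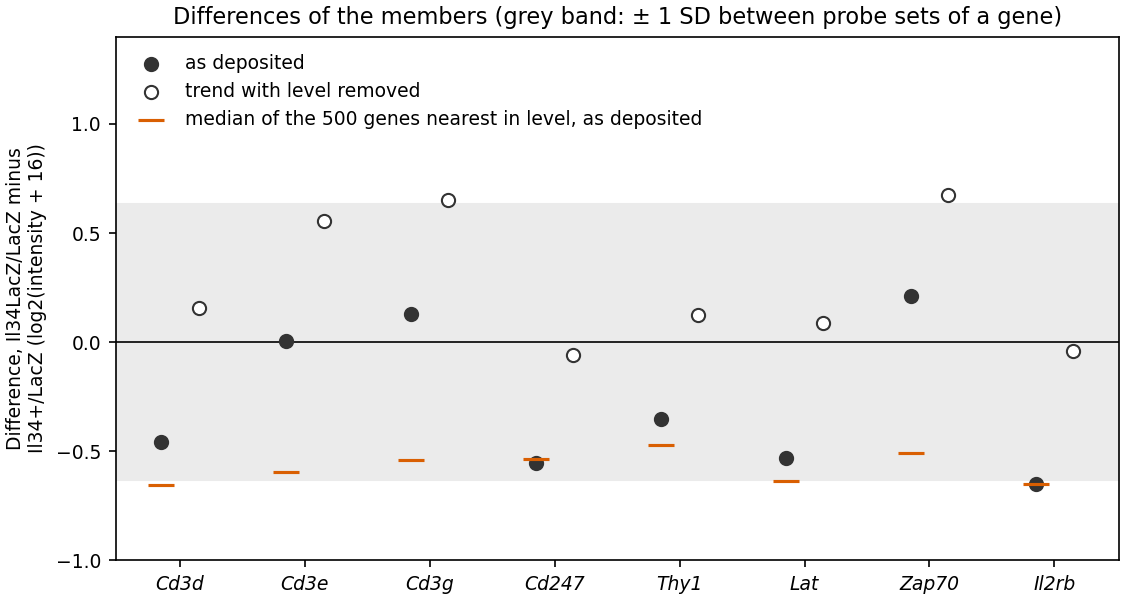
Difference of each of the 8 genes (log2(intensity + 16), Il34LacZ/LacZ minus Il34+/LacZ) as deposited (filled) and with the trend with level removed (open); orange bars are medians of the 500 genes nearest in level and the grey band is 1 probe set SD of 0.63 on either side of 0. As deposited only Il2rb leaves the band, at -0.65, and with the trend removed Cd3g and Zap70 leave it, at 0.65 and 0.67.

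The summed intensity of the 8 genes was 6861.9 in Il34LacZ/LacZ and 8089.6 in Il34+/LacZ cells, a ratio of 0.848. The sum over all genes had a ratio of 0.775, so the 8 genes made up 0.25% of the summed intensity in Il34LacZ/LacZ and 0.228% in Il34+/LacZ cells. For the 3 clustered CD3 genes alone the sums were 3422.9 in Il34LacZ/LacZ and 3485.6 in Il34+/LacZ cells, a ratio of 0.982. By the rule for named genes, the 3 genes whose levels on both arrays lay nearest to the mean of those CD3 chains were Ndufa4, Atp6v1g1 and Ndfip1, at log2 distances of 0.07, 0.09 and 0.09. With 2 arrays this likeness is only a similar pair of readings.

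The chains that bind antigen could not be read in the same way. None of the 14 listed T cell receptor loci and constant or variable segments, among them Trdc, the constant segment of the delta chain, had a probe set of its own. Variable segments had 10 probe sets with 1 symbol and 29 with several. The 10 read from 8.26 to 86.6 in Il34LacZ/LacZ and from 8.53 to 70.0 in Il34+/LacZ cells, and 3 passed the floor. The 29, which cannot be assigned to a segment, reached 933.5 in Il34LacZ/LacZ and 1353.9 in Il34+/LacZ cells, and 16 passed the floor.

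Coreceptor and costimulation genes were mostly read above the floor as well. Of 14 genes, 13 passed the floor. In Il34LacZ/LacZ 2 of them were higher by at least 1.5-fold and 3 lower. Over all genes passing the floor 9.34% were higher and 28.1% lower, the shares to set beside this and the list counts below. The median of the list was -0.23, and 0.28 with the trend removed. Its sign also turned with upper quartile scaling, at 0.04. Cd5, an inhibitory receptor of T cells, read 383.4 in Il34LacZ/LacZ and 139.9 in Il34+/LacZ cells, 2.56-fold higher, and Cd96, an adhesion receptor of T and NK cells, read 316.4 in Il34LacZ/LacZ and 163.5 in Il34+/LacZ cells. Cd8b1, the beta chain of the CD8 coreceptor, was lower at 205.4 in Il34LacZ/LacZ and 386.1 in Il34+/LacZ cells, whereas the alpha chain gene Cd8a read 506.9 in Il34LacZ/LacZ and 410.8 in Il34+/LacZ cells. Cd4, the coreceptor of helper T cells, read 55.0, near the floor, in Il34LacZ/LacZ and 104.2 in Il34+/LacZ cells. Cd2, an adhesion receptor, and Cd7, both named after their values were seen, were bright in both genotypes. Cd2 read 720.5 in Il34LacZ/LacZ and 904.6 in Il34+/LacZ cells, and Cd7 read 1628.3 in Il34LacZ/LacZ and 1531.3 in Il34+/LacZ cells.

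The list of T cell receptor signalling proteins ran from kinases that act beside LCK to adaptors that act after LAT. Its differences ran from -2.03 to 1.09 and those of the 8 genes from -0.65 to 0.21, but a longer list can span more by number alone. Of 24 listed genes 22 were measured and 20 passed the floor. Of these, 7 were at least 1.5-fold lower and 2 higher in Il34LacZ/LacZ, against 28.1% and 9.34% of all genes passing the floor. The median of the list was -0.47, and -0.09 with the trend removed. Grap2, the adaptor that joins LAT to SLP-76, read 106.3 in Il34LacZ/LacZ and 483.5 in Il34+/LacZ cells, 4.08-fold lower, and -1.49 with the trend removed. Fyn, a Src family kinase that can act beside LCK, read 106.8 in Il34LacZ/LacZ and 398.9 in Il34+/LacZ cells, 3.38-fold lower. Vav1, an exchange factor of blood cells, read 182.8 in Il34LacZ/LacZ and 444.5 in Il34+/LacZ cells, 2.32-fold lower. Sit1, a transmembrane adaptor of lymphocytes named after its values were seen, ran the other way at 355.0 in Il34LacZ/LacZ and 157.9 in Il34+/LacZ cells. The genes on this list are not all T cell genes: Vav1 and Fyn are also expressed by myeloid cells.

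In the IL-2 and IL-15 receptor pathway, which Il2rb serves, 9 of 11 genes were measured, each of them passing the floor. There 1 was at least 1.5-fold higher and 1 lower in Il34LacZ/LacZ, with a median of -0.19 that was 0.26 with the trend removed and 0.09 with upper quartile scaling. Jak1, the kinase bound to the IL-2 receptor beta chain, read 359.5 in Il34LacZ/LacZ and 891.0 in Il34+/LacZ cells, 2.42-fold lower. Il2 itself read 88.6 in Il34LacZ/LacZ and 49.3, near the floor, in Il34+/LacZ cells, and Il15 read 21.6, below the floor, in Il34LacZ/LacZ and 59.6 in Il34+/LacZ cells. Il2rg, the common gamma chain, was not analysed here. Il7r, the IL-7 receptor of T cells, named after its values were seen, was level at 1037.9 in Il34LacZ/LacZ and 1034.0 in Il34+/LacZ cells.

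T lineage transcription factors differed in both directions. Of 10 measured, 9 passed the floor, with 2 higher and 3 lower by at least 1.5-fold, and the median of 0.11 was -0.04 with each array centred on its median. Foxp3, the factor of regulatory T cells, read 83.4 in Il34LacZ/LacZ and 264.3 in Il34+/LacZ cells, 2.82-fold lower. Bcl11b, which T cell identity requires, read 271.3 in Il34LacZ/LacZ and 141.3 in Il34+/LacZ cells, 1.83-fold higher. Lef1, a partner factor of the TCF family, read 108.2 in Il34LacZ/LacZ and 40.9, below the floor, in Il34+/LacZ cells, at least 1.92-fold higher.

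Genes of gamma delta T cells and of cytotoxic cells were read as well. Of 13 gamma delta genes 8 were measured and all 8 passed the floor on at least 1 array, 6 of them on both. In Il34LacZ/LacZ 2 were at least 1.5-fold higher and 1 (Klrk1) lower, against 9.34% and 28.1% of all genes passing the floor. The median of the 8 gamma delta genes was 0.44 (0.36 with the trend removed). The listed genes not measured are all receptor segments, so this median holds no reading of the gamma delta receptor itself. Klrk1 is also on the cytotoxic list. Whether these readings come from epidermal gamma delta T cells was not tested. Cd163l1, a scavenger receptor of gamma delta T cells, read 229.2 in Il34LacZ/LacZ and 131.7 in Il34+/LacZ cells. Il23r, the IL-23 receptor, read 93.6 in Il34LacZ/LacZ and 52.1, near the floor, in Il34+/LacZ cells. Klrk1, the activating receptor NKG2D, read 110.1 in Il34LacZ/LacZ and 191.7 in Il34+/LacZ cells. Of 16 cytotoxic and NK cell genes 12 passed the floor, 1 was higher and 2 lower. Their median was -0.22, but 0.33 with the trend removed and 0.06 with upper quartile scaling. Ctsw, a protease of cytotoxic cells, was 2.91-fold lower (220.4 in Il34LacZ/LacZ and 671.4 in Il34+/LacZ cells), and Cd160, a receptor of cytotoxic cells, 1.96-fold higher (122.8 in Il34LacZ/LacZ and 54.8 in Il34+/LacZ cells). Nkg7, a granule protein, and Klrd1, the receptor chain CD94, both named after their values were seen, read 1306.0 and 1136.1 in Il34LacZ/LacZ cells, against 1488.7 and 1385.9 in Il34+/LacZ cells. The NK cell receptor genes Ncr1 and Klrb1c, also named for their values, were below the floor in both, at 13.1 and 10.9 in Il34LacZ/LacZ and 10.1 and 14.8 in Il34+/LacZ cells.

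Myeloid cells use relatives of these proteins, and those were read beside them. Fcer1g, a signalling chain related to zeta, read 2109.2 in Il34LacZ/LacZ and 2855.2 in Il34+/LacZ cells. Syk, the relative of ZAP-70, read 120.9 in Il34LacZ/LacZ and 186.2 in Il34+/LacZ cells, and Lat2, the relative of LAT, read 348.3 in Il34LacZ/LacZ and 686.6 in Il34+/LacZ cells. Of the 9 relatives measured 8 passed the floor, 4 were at least 1.5-fold lower and none higher, with a median of -0.61 that was -0.11 with the trend removed. Csf2rb2 and Csf2rb, beta chains of the IL-3 and GM-CSF receptor family, were 3.04-fold and 2.19-fold lower in Il34LacZ/LacZ. Whether the relatives differed from the T cell genes was not tested.

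**Figure D4:**
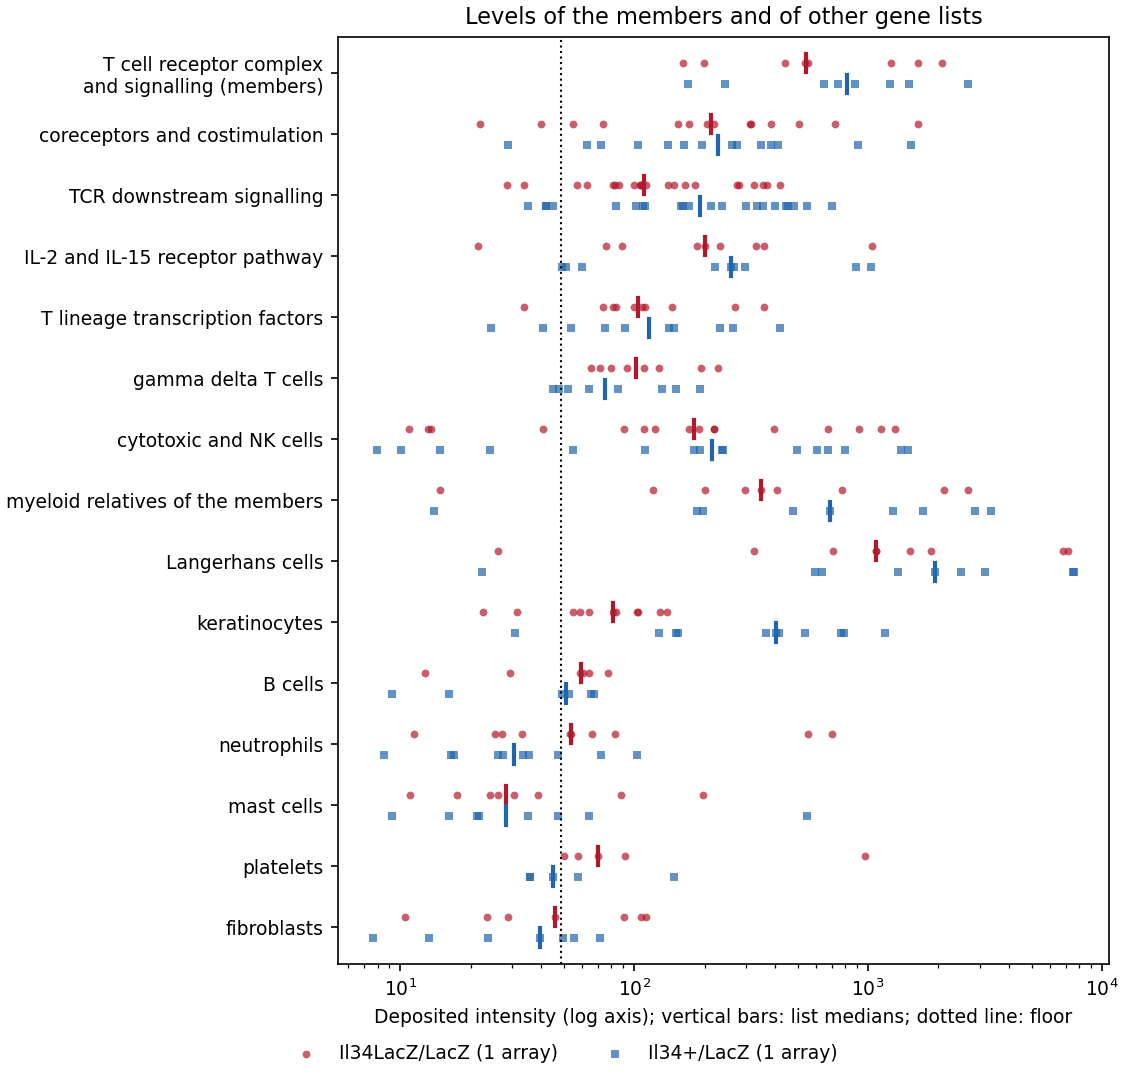
Deposited intensity (log axis) of each measured gene in the 8 T cell receptor genes and in the other gene lists, on the Il34LacZ/LacZ array (red circles) and the Il34+/LacZ array (blue squares), 1 array each; bars are list medians and the dotted line is the floor. The 8 genes have medians of 544.9 in Il34LacZ/LacZ and 810.1 in Il34+/LacZ cells, and most B cell, mast cell and fibroblast genes lie near or below the floor.

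Markers of other cells were read on the same arrays, and their part in the T cell readings was not tested. Keratinocyte genes summed to 870.5 in Il34LacZ/LacZ and 4927.8 in Il34+/LacZ cells over 11 genes, with readings from 22.5 to 138.0 in Il34LacZ/LacZ and from 31.1 to 1187.5 in Il34+/LacZ cells. Of the 10 that passed the floor, 8 were at least 1.5-fold lower, among them Krt14, the basal keratin, at 58.6 in Il34LacZ/LacZ and 787.4 in Il34+/LacZ cells. Neutrophil genes summed to 1604.0 in Il34LacZ/LacZ and 387.3 in Il34+/LacZ cells over 10 genes. Of these, 6 passed the floor on at least 1 array and 2 on both. Most of the Il34LacZ/LacZ sum came from S100a8 and S100a9. S100a8, a calprotectin subunit, read 552.1 in Il34LacZ/LacZ and 71.9 in Il34+/LacZ cells, and S100a9 read 698.6 in Il34LacZ/LacZ and 103.2 in Il34+/LacZ cells. The neutrophil surface marker Ly6g, named after its values were seen, was below the floor in both. B cell genes summed to 302.2 in Il34LacZ/LacZ and 259.8 in Il34+/LacZ cells over 6 genes, of which 4 passed the floor on both arrays and 2 on neither. Ighm, the heavy chain of IgM, read 77.1 in Il34LacZ/LacZ and 52.5 in Il34+/LacZ cells, Pax5, the B lineage factor, 63.9 in Il34LacZ/LacZ and 49.4 in Il34+/LacZ cells, and Cd79b, a B cell receptor chain, 60.4 in Il34LacZ/LacZ and 67.2 in Il34+/LacZ cells. The B cell marker Ms4a1, named after its values were seen, was below the floor in both.

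Other cells share single genes with the T cell list. Fibroblasts share Thy1, and their 7 genes summed to 419.0 in Il34LacZ/LacZ and 260.7 in Il34+/LacZ cells; 3 of them, collagen genes, passed the floor on both arrays. Mast cells share Lat, and their 8 genes summed to 432.8 in Il34LacZ/LacZ and 762.8 in Il34+/LacZ cells, and 2 of them passed the floor on both arrays. Kit, the stem cell factor receptor, read 196.1 in Il34LacZ/LacZ and 547.3 in Il34+/LacZ cells, 2.66-fold lower and most of the second sum, and the transcription factor Gata2 read 88.0 in Il34LacZ/LacZ and 64.4 in Il34+/LacZ cells. The other 6, among them the mast cell receptor chain Ms4a2 and the protease Cpa3, named after their values were seen, were below the floor in both. Platelets also share Lat, and their 5 genes summed to 1244.9 in Il34LacZ/LacZ and 322.3 in Il34+/LacZ cells, most of the first sum from Pf4. Langerhans cell genes summed to 20571.8 in Il34LacZ/LacZ and 25282.6 in Il34+/LacZ cells over 9 genes, a ratio of 0.814. Ptprc, the pan-leukocyte CD45 that T cells and Langerhans cells both carry, read 1078.2 in Il34LacZ/LacZ and 1345.6 in Il34+/LacZ cells.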

How the data were processed

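The values deposited by the authors are intensities on a linear scale, 1 for each probe set on each array. For probe summarisation, background correction and scaling, the sources used here give no method. Of 34760 probe sets, 21640 had 1 gene symbol in the platform annotation, 1321 several and 11799 none; only the first kind was named. A gene was represented by its probe set with the highest mean. Values were taken as log2(intensity + 16), and a difference is Il34LacZ/LacZ minus Il34+/LacZ. Folds are taken from these differences, not from the ratio of the intensities. Genes entered lists if their higher array reached the floor (48.7). Calls at 1.5-fold as deposited used values raised to it, so a fold against an array below it is a lower bound. Calls with the trend removed used the differences without raising values to the floor. The trend was a loess fit over single-symbol probe sets (smoothing fraction 0.3). The fit was tested on simulated data with a built-in trend and few changed probe sets, equally many up and down. Whether the trend between the real arrays is technical was not tested. The number of arrays limits the precision; there is no p-value.

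Members and lists were chosen with earlier results of these data known. Named were all members, up to 3 genes per list with the largest difference, 11 preset genes and the 3 nearest to the CD3 mean; others are marked. Promoters matched 7 of the 9 genes. Alternatives changed the floor, pseudocount, probe set rule, scaling and trend. Python 3.11.15, numpy 2.4.6, pandas 2.3.3, statsmodels 0.14.6 and matplotlib 3.10.9 were used.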

Additional observations from a re-analysis of the deposited data

How the results depend on the processing

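No paired analysis was possible because each genotype has 1 array. The differences of the 8 genes, their median and the medians of 10 of the 14 other measured lists moved by less than the probe set SD in every alternative that gave a value; the raised floor left no B cell or fibroblast gene. The member median ran from -0.56 with arrays centred on the median to 0.22 with the trend removed at a fraction of 0.6. Counts of the 8 at least 1.5-fold lower were 1 as reported, 2 with a pseudocount of 1 and 4 with arrays centred on the median. They were 0 with upper quartile scaling, quantile normalization and both trend removals. Counts at least 1.5-fold higher were 0 as reported, 1 with quantile normalization, 2 with the trend removed and 3 with it removed at 0.6. Over all genes 1200 were higher as reported, against 252 with the floor at the 75th percentile, 2442 with no floor, 455 with a pseudocount of 64, 725 after median centring, 2230 after upper quartile scaling, 1815 after quantile normalization and 1881 with the trend removed at 0.6. Lower genes numbered 3612 as reported, against 2380, 2206 and 2138 with the raised floor, upper quartile scaling and quantile normalization, and 2368 and 2399 with the trend removed at 0.3 and 0.6. The median of all genes was -0.16 as reported, -0.54 with the raised floor, 0.16 with upper quartile scaling and -0.33 with median centring. With the raised floor, medians of small lists moved by more than the probe set SD, to -0.63 for T lineage factors, 2.64 for neutrophils, -1.41 for mast cells and 2.60 for platelets, since fewer genes remained. The cause of the other shifts was not tested. Of the 8 genes, Zap70 and Cd247 lay closest to the floor. Any background signal would weigh most on these genes, but background was not measured.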
